A study of Mus musculus with 6 samples.

Results

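The genes described here encode the folding machinery of the cytosol and of mitochondria: the ring-shaped chaperonin and its partner prefoldin, the Hsp70 and Hsp90 systems with their cochaperones, the mitochondrial chaperones and the small heat shock proteins. They were chosen by name, as 37 gene symbols, with earlier results of these data known. Each was read from the array probe sets annotated to that symbol alone. Of these, 32 were found, through 47 probe sets, among 8251 named genes on the array. Hsp90ab1, Ahsa1, Trap1 and Hsf1 had no probe set in the annotation used here, and the 1 probe set of Ptges3 was shared with a pseudogene, so these 5 were not analysed here. Of the 32 genes found, 30 reached a floor of 142.8 signal units on at least 1 array; this floor is the 40th percentile of all values, and signals below it were given no order. The other two, Hspb1 and Pfdn1, lay below it on all 6 arrays.

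Chaperones bind proteins that are not yet folded or have lost their fold, and release them by cycles of ATP use. New proteins pass from Hsp70 to the chaperonin, which folds actin and tubulin inside its cavity, or to Hsp90, which matures protein kinases and steroid receptors, the estrogen receptor among them. In the uterus, estrogen is known for a wave of RNA and protein synthesis that precedes growth of the organ.

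Each group consisted of uteri from C57Bl/6 females, 10 to 11 weeks of age, whose ovaries had been removed 7 days before death, pooled before RNA extraction and read on 1 Affymetrix U74Av2 array. Estradiol, at 0.05 µg per mouse under the skin, had been given to 5 groups (1 h, 3 h, 6 h, 12 h and 24 h before death), and the control mice received vehicle 24 h before death. Vehicle is therefore matched in time since injection to the 24 h group alone, and at earlier times effects of injection and of estradiol cannot be told apart. The labels state 10 mice without saying whether that is per group. With 1 pooled array in each group no difference could be set against a spread between replicates, so there is no test, and every comparison sets 1 array beside another. The sources disagree on age: the figure given is that of the sample labels, while the growth protocol has the mice arrive at 10 weeks and acclimate for 3 more.

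Marker genes were checked first. On the vehicle array and the 1, 6, 12 and 24 h arrays, all 7 epithelial markers, all 6 smooth muscle markers and all 6 stromal markers were at or above the floor. The array labelled 3 h stood apart. There the summed signal of the epithelial markers was 701, against 8482 to 14237 on the other 5 arrays, and that of the smooth muscle markers 3135, against 27228 to 44618. Hoxa10, Hoxa11 and Wt1, transcription factor genes of the uterine stroma, were below the floor on it. The other 3 stromal markers were at or above the floor there. Together the 6 stromal markers summed to 35358 on this array, within the 23094 to 49390 of the other 5 arrays. Leukocyte markers summed to 6458, against 1217 to 1809. The 4 skeletal muscle markers (Ckm, Acta1, Myh4 and Mb) summed to 43416 on this array, against 387 to 2713 elsewhere. Its rank correlation with the other 5 arrays was 0.843 to 0.857, against 0.929 to 0.968 among those 5. The estrogen targets Pgr, Inhbb and Ramp3 were also below the floor on it, while each was above vehicle at 1, 6, 12 and 24 h. Ltf, another estrogen target, was 1.28-fold higher than vehicle at 1 h and 4.15-fold higher on the array labelled 3 h. It was 1.36-fold lower than vehicle at 6 h, 1.90-fold at 12 h and 1.29-fold at 24 h. The epithelial, smooth muscle and skeletal muscle markers go against the labelled tissue. The array labelled 3 h is therefore described apart, at the end, and takes no place in the time course.

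Chaperone genes were higher at 6 and 12 h after estradiol and closer to vehicle at 24 h, where none passed 2-fold. At 6 h, 12 of the 32 genes were at least 2-fold above vehicle and none was 2-fold below. By comparison, 6.34% of the 6562 genes that reached the floor on any array (5.04% of all named genes) were 2-fold higher at 6 h, and 8.35% were 2-fold lower. The chaperone genes were chosen with earlier results of these data known, so these shares describe the list and are not a test. At 12 h, 8 chaperone genes were 2-fold higher, against 6.16% of the genes measured, and none was lower, against 6.93%. At 1 h and at 24 h no chaperone gene was 2-fold away in either direction, against 0.853% higher and 0.351% lower at 1 h and 3.41% higher and 3.54% lower at 24 h. The median log2 ratio over the 30 measured genes was 0.04 (1 h), 0.77 (6 h), 0.64 (12 h) and 0.29 (24 h), while that over all genes measured was 0.00 at each of these times. With the floor at the 60th percentile the 24 h median was 0.14. Of the 30, 29 lay above vehicle at 6 h by any amount, against 42.5% of all genes measured. The exception was Pfdn5. At a lower limit of 1.5-fold, 20 of the 32 were higher at 6 h, against 14.4% of the genes measured, and 19 at 12 h, against 14.8%. At 1 h, Cct6a and Cryab were higher at that fold, 2 of 32 against 4.08%.

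**Figure D1:**
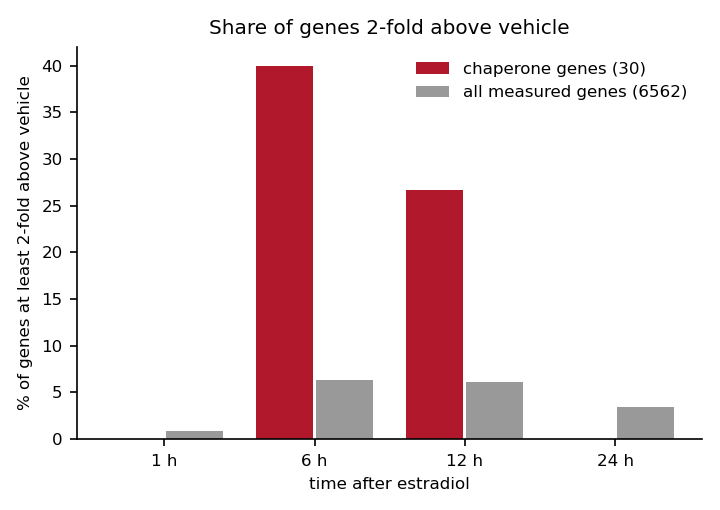
Percentage of genes at least 2-fold above vehicle (y axis) at each time after estradiol (x axis), for the 30 measured chaperone genes (red, left bar) and all 6562 measured genes (grey, right bar). The chaperone bars stand at 40% at 6 h and 26.7% at 12 h and are at 0 at 1 h and 24 h. Each time is 1 array.

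All 8 genes that were 2-fold higher at 12 h were among the 12 of 6 h: Cct3, Cct6a, Cct7, Cct8, Hsph1, Hsp90aa1, Hspe1 and Stip1. The other 4, Cct4, Hspa1b, Hspa4 and Hspa8, were between 1.46-fold and 1.91-fold above vehicle at 12 h. These comparisons share the vehicle array. A pair that shares no array is 6 h against vehicle and 12 h against 1 h: the second comparison had 8 chaperone genes at 2-fold higher, against 6.45% of the genes measured, and 7 of them were among the 12 of the first. The gene outside that overlap was Hspa9. Neither overlap was counted over all genes measured, so whether it is particular to the chaperone genes cannot be told. With the 1 h array as baseline for 6 h, 13 genes were 2-fold higher, against 6.64% of the genes measured.

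In the same organ, markers of other cell types moved as well. The 3 adipocyte markers found (Retn, Adipoq and Car3) summed to 5414 at 6 h and 3597 at 12 h, against 10413 in vehicle, and the stromal markers to 23094 at 6 h and 30617 at 12 h, against 44453 in vehicle. The endothelial markers summed to 1644 at 6 h and 1313 at 12 h, against 2350 in vehicle, with 3 of 5 at or above the floor at both times. Epithelial markers summed to 9767 at 6 h, against 9540 in vehicle, and smooth muscle markers to 34588, against 35269. Leukocyte markers summed to 1300 at 6 h and 1217 at 12 h, against 1730 in vehicle. The 3 pancreatic markers found, which mark no uterine cell type, summed to 2866 in vehicle. On the other arrays of the time course they summed to 1133 (1 h), 405 (6 h), 1054 (12 h) and 787 (24 h). All 3 reached the floor in vehicle and 1 at each of these times, so the vehicle array, the baseline of the ratios, stood apart. The skeletal muscle markers summed to 1050 at 6 h and 2713 at 12 h, against 569 in vehicle, with Ckm, Myh4 and Mb below the floor on all 3 of these arrays, and the 3 ovarian markers found never reached the floor. The part of these shifts in the chaperone values was not tested, and in a whole organ fewer cells of a type and less RNA per cell cannot be told apart.

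**Figure D2:**
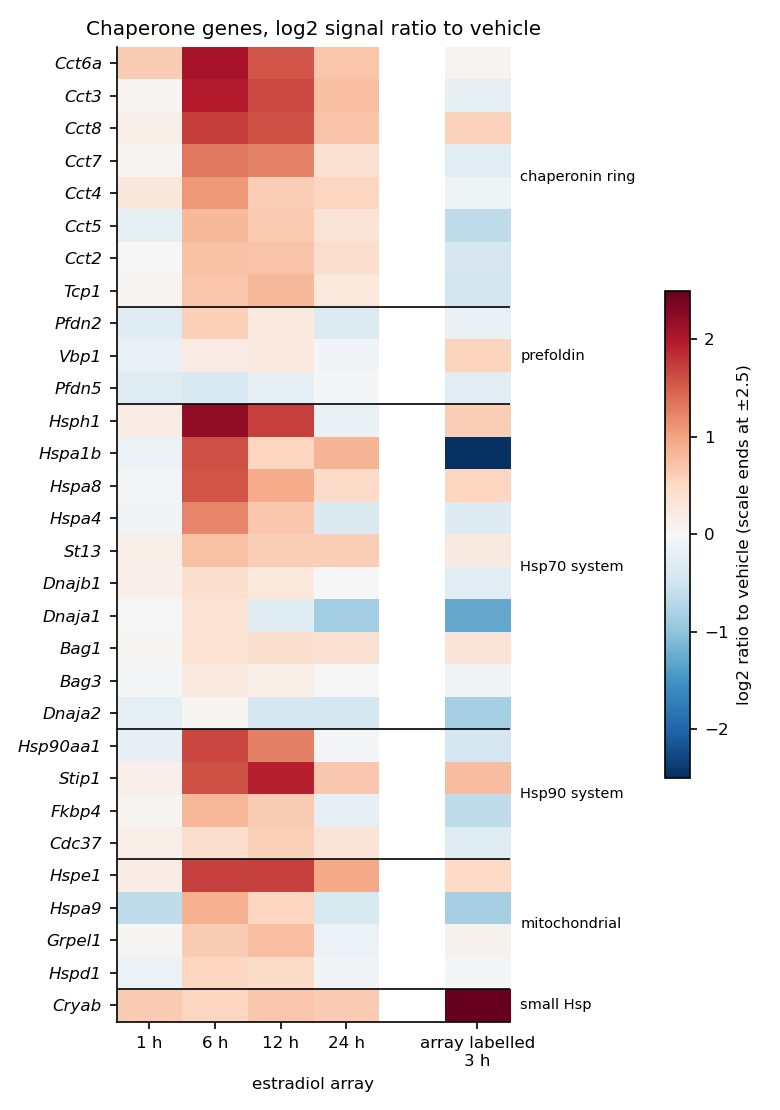
Log2 ratio of signal to vehicle (colour, red higher and blue lower) for the 30 measured chaperone genes (rows, grouped by class and ordered by the 6 h value) on each estradiol array (columns), with the array labelled 3 h set apart at the right. The 6 h and 12 h columns are mostly red, and Hspa1b and Cryab lie beyond opposite ends of the scale on the array labelled 3 h.

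The chaperonin ring, also called TRiC or CCT, is built from 8 related subunits, and all 8 genes were measured. At 6 h every subunit gene was above vehicle, from 1.63-fold for Tcp1 to 4.16-fold for Cct6a, and 5 of the 8 were at least 2-fold higher. The class median log2 ratio was 1.20 at 6 h, 1.03 at 12 h and 0.48 at 24 h. At 24 h all 8 were still above vehicle, by 1.21-fold to 1.69-fold, against 43.3% of all genes measured that were higher by any amount.

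Cct6a had a signal of 474 (vehicle), 736 (1 h), 1976 (6 h), 1415 (12 h) and 769 (24 h). Its measured probe set is of a kind that can also bind related transcripts, as are the brightest probe sets of Cct3, Cryab and Fkbp4. The other probe set of Cct6a was below the floor on all arrays. Cct3, another subunit, had 1334 (vehicle), 1377 (1 h), 5275 (6 h), 4196 (12 h) and 2258 (24 h). In both genes the 6 h array was the highest and the 12 h array next. The other probe sets of Cct3 were 2.27-fold and 1.91-fold higher at 6 h, lower folds than the 3.96-fold of the brightest.

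Cct8 had a signal of 697 (vehicle), 771 (1 h), 2306 (6 h), 2113 (12 h) and 1135 (24 h). Cct7 had 1839 (vehicle), 1902 (1 h), 4614 (6 h), 4327 (12 h) and 2400 (24 h). Cct4 had 2109 (vehicle), 2562 (1 h), 4460 (6 h), 3228 (12 h) and 3043 (24 h). The first pair of genes stayed within 1.1-fold of their 6 h level at 12 h, whereas Cct4 was 1.38-fold lower at 12 h than at 6 h. The remaining subunits, Tcp1, Cct2 and Cct5, were 1.63-fold to 1.75-fold above vehicle at 6 h by their brightest probe sets. For Cct5 the second probe set was 2.97-fold higher, with 549 at 6 h against 185 in vehicle.

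Prefoldin hands unfolded actin and tubulin chains to the chaperonin. None of its measured genes passed 2-fold at 6 h, and neither did Tcp1, Cct2 and Cct5 of the chaperonin by their brightest probe sets. Pfdn2 had a signal of 791 (vehicle), 639 (1 h), 1200 (6 h), 938 (12 h) and 625 (24 h), so that it was 1.52-fold above vehicle at 6 h. Vbp1, a further subunit gene, was 1.16-fold higher at 6 h and 1.18-fold at 12 h. Pfdn5 was below the floor at 6 h, at 119 against 186 in vehicle, with a log2 ratio of -0.38 or less. Pfdn6, a prefoldin subunit gene outside the set, was 1.41-fold higher at 6 h and 1.39-fold at 12 h. The median log2 ratio of the 3 measured prefoldin genes of the set was 0.21 at 6 h, against 1.20 for the 8 chaperonin genes. That difference was not tested.

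**Figure D3:**
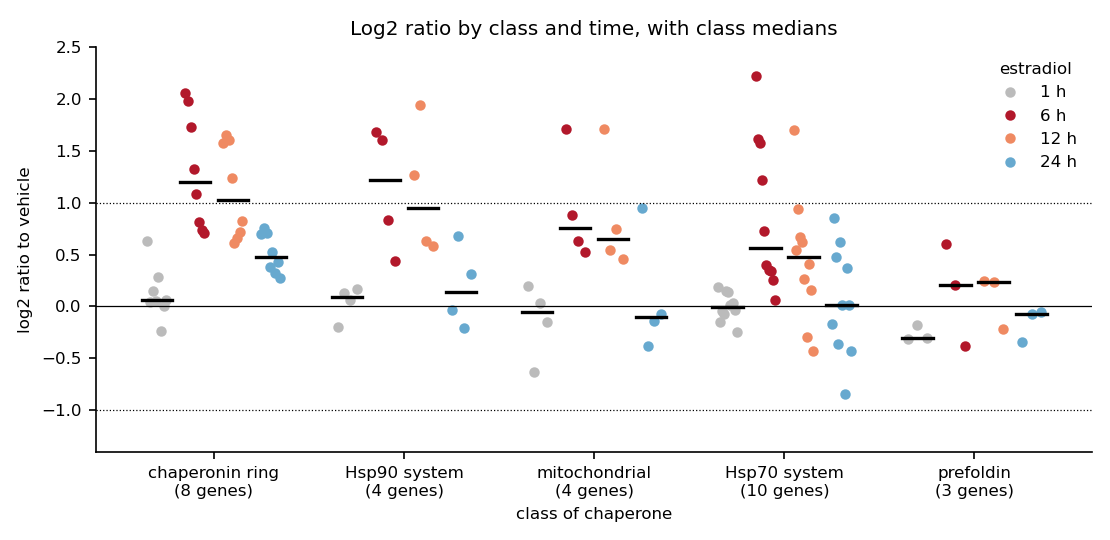
Log2 ratio of signal to vehicle (y axis) of each measured gene (points, 1 array per time) in 5 classes of chaperone (x axis) at 1, 6, 12 and 24 h after estradiol, with the class median as a bar and 2-fold as dotted lines. The chaperonin and Hsp90 medians lie at 1.20 and 1.22 at 6 h, and those of the mitochondrial, Hsp70 and prefoldin classes at 0.75, 0.56 and 0.21. Over the settings tried, the 6 h median ranged from 0.91 to 1.32 for the 4 measured Hsp90 genes. For the 8 chaperonin genes it ranged from 1.12 to 1.30.

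Among the Hsp70 system genes of this set, those of Hsp70 and Hsp110 proteins passed 2-fold at 6 h and the partners did not. All 4 genes of the first kind passed 2-fold at 6 h: Hsph1 at 4.67-fold, Hspa1b at 3.05-fold, Hspa8 at 2.98-fold and Hspa4 at 2.33-fold. None of the 6 partner genes did, and they ranged from 1.04-fold (Dnaja2) to 1.66-fold (St13). Hspa9, the mitochondrial Hsp70 gene of the set, is classed apart and was 1.84-fold higher at 6 h. The split did not extend to it or to related genes outside the set. Of the Hsp70 and Hsp110 genes there, Hspa1a was 1.86-fold, Hspa14 1.65-fold and Hspa1l 1.41-fold higher at 6 h. Hspa2 and Hspa4l were lower, with log2 ratios of -0.41 and -0.56. The J-domain protein genes Dnajc2, Dnajc5 and Dnajb4 passed 2-fold, whereas Dnaja3, Dnajb2, Dnajb6 and Dnajc7 did not. The class median log2 ratio was 0.56 at 6 h, which lies within the range of the partner genes.

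Hsph1, an Hsp110 protein that exchanges the nucleotide bound to Hsp70, had a signal of 904 (vehicle), 1027 (1 h), 4222 (6 h), 2944 (12 h) and 805 (24 h). It had the highest fold of the chaperone genes at 6 h, and at 24 h it was 1.12-fold below vehicle. Hspa4, a related Hsp110 protein, had 1825 (vehicle), 1740 (1 h), 4256 (6 h), 2894 (12 h) and 1421 (24 h). Of its other probe sets, 3 reached the floor, and they were 2.40-fold to 4.67-fold above vehicle at 6 h. At 24 h these 3 were 1.35-fold to 1.81-fold above vehicle whereas the brightest was 1.28-fold below it, so the 24 h direction of Hspa4 depends on the probe set.

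Hspa8, the constitutive Hsp70 of the cytosol, had a signal of 3840 (vehicle), 3736 (1 h), 11462 (6 h), 7341 (12 h) and 5327 (24 h). Hspa1b, a stress-inducible Hsp70, had 1394 (vehicle), 1254 (1 h), 4253 (6 h), 2034 (12 h) and 2517 (24 h). It was the gene with the largest drop between 6 and 12 h, 2.09-fold, and the only chaperone gene 2-fold lower at 12 h than at 6 h, against 1.33% of the genes measured. Hspa1b and Hspa1a are nearly identical copies, so the probe sets may not separate them. The probe set annotated to Hspa1a had 1706 at 6 h against 917 in vehicle.

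Among the J-domain partners, which bring substrates to Hsp70 and start its ATP cycle, Dnaja1 had a signal of 3361 (vehicle), 3404 (1 h), 4275 (6 h), 2743 (12 h) and 1869 (24 h). It was 1.27-fold above vehicle at 6 h and 1.80-fold below it at 24 h, the lowest ratio of any chaperone gene at 24 h. Dnaja2 was 1.35-fold below vehicle at 12 and at 24 h, and Dnajb1 1.32-fold above at 6 h and 1.01-fold above at 24 h. St13, which stabilises the substrate-bound state of Hsp70, stayed 1.54-fold above vehicle at 12 and at 24 h. The exchange factor genes Bag1 and Bag3 were 1.27-fold and 1.19-fold higher at 6 h, and a second probe set of Bag3 was 1.36-fold lower.

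In the Hsp90 system, Hsp90aa1, the inducible cytosolic Hsp90, had a signal of 3775 (vehicle), 3286 (1 h), 12072 (6 h), 9080 (12 h) and 3685 (24 h). Its log2 ratio to vehicle was 1.68 at 6 h and -0.03 at 24 h. Its other probe set was below the floor on all arrays, and with the median of its probe sets the log2 ratio was 0.84 at 6 h and 0.63 at 12 h in place of 1.68 and 1.27. Stip1, which carries proteins from Hsp70 to Hsp90, had 377 (vehicle), 411 (1 h), 1144 (6 h), 1451 (12 h) and 604 (24 h). It was 1 of 8 measured chaperone genes whose highest array was 12 h, and had the highest fold at 12 h, 3.85.

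The remaining cochaperones of Hsp90 moved less. Fkbp4, an immunophilin bound to steroid receptor complexes and needed for full progesterone receptor activity in the mouse uterus, had a signal of 3613 (vehicle), 3780 (1 h), 6456 (6 h), 5581 (12 h) and 3130 (24 h). It was 1.79-fold higher at 6 h by this probe set and 2.15-fold by its other one. Cdc37, which loads kinases onto Hsp90, was 1.35-fold higher at 6 h and had 2278 at 12 h, against 1517 in vehicle.

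**Figure D4:**
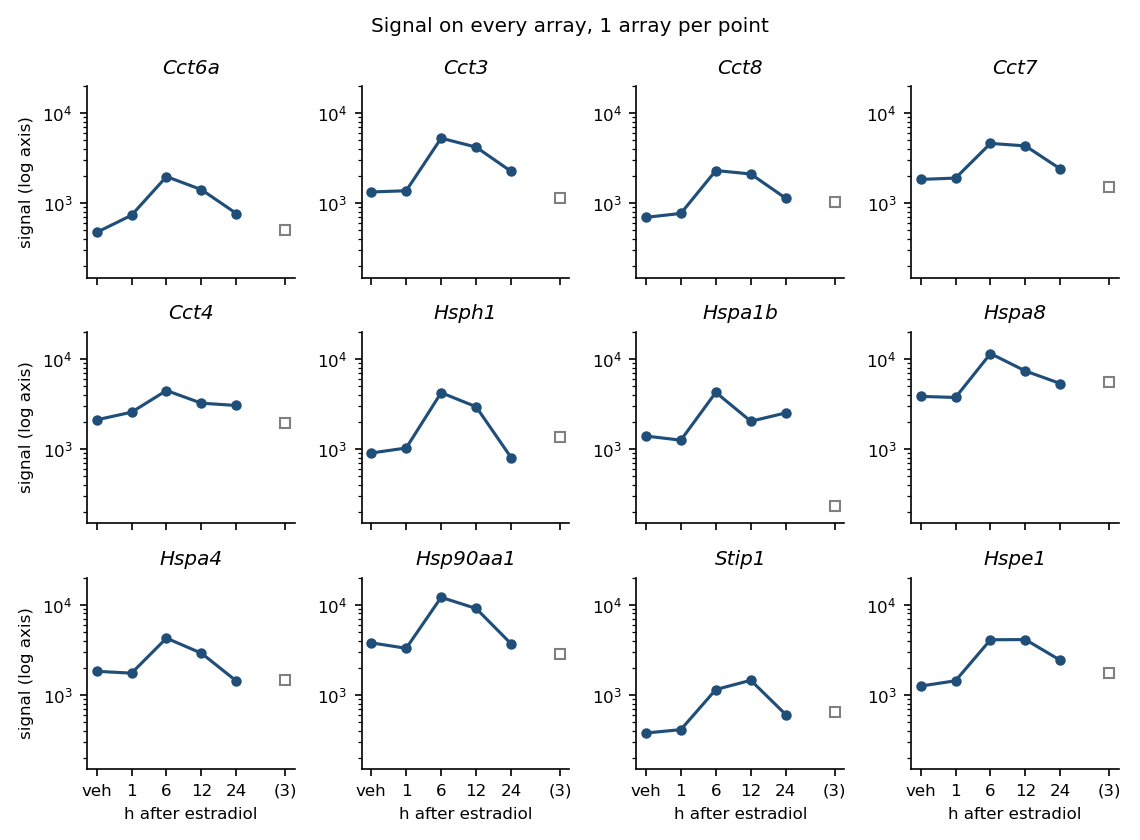
Signal on a log axis (y axis) in vehicle and at 1, 6, 12 and 24 h after estradiol (x axis, connected points, 1 array each) for the 12 chaperone genes at least 2-fold above vehicle at 6 h, with the array labelled 3 h as an open square. All 12 were higher at 6 h than in vehicle and lower at 24 h than at 6 h.

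The mitochondrial chaperones were split. Hspe1, which encodes the Hsp10 lid of the mitochondrial chaperonin, had a signal of 1251 (vehicle), 1432 (1 h), 4084 (6 h), 4102 (12 h) and 2412 (24 h). It was 3.27-fold higher at 6 h, 3.28-fold at 12 h and 1.93-fold at 24 h, the highest 24 h ratio of the chaperone genes. Hspd1, the Hsp60 barrel that this lid closes, had 5098 (vehicle), 4585 (1 h), 7355 (6 h), 7016 (12 h) and 4855 (24 h). It was 1.44-fold higher at 6 h and 1.38-fold at 12 h. Its second probe set went the other way, at 68.0 at 6 h, below the floor, against 230 in vehicle.

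Hspa9, the mitochondrial Hsp70, had a signal of 2517 (vehicle), 1624 (1 h), 4644 (6 h), 3677 (12 h) and 1931 (24 h). It was 1.55-fold lower than vehicle at 1 h, the only chaperone gene lower by 1.5-fold at that time, against 3.31% of the genes measured, and 1.84-fold higher at 6 h. Grpel1, which exchanges its nucleotide, was 1.54-fold higher at 6 h and 1.68-fold at 12 h. Of the small heat shock proteins, which hold unfolded chains without ATP, Cryab was 1.45-fold to 1.61-fold above vehicle at 6, 12 and 24 h, from a vehicle signal of 148 close to the floor.

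Between 6 and 24 h the chaperone signal went down. At 24 h, 27 of the 30 measured genes were lower than at 6 h by any amount, against 43.3% of all genes measured, and 10 were at least 2-fold lower, against 5.23%. At 1.5-fold 17 were lower, against 13.8%. Both counts use the 6 h array on which the genes were high, so they are no second line of evidence for the 6 h level. Hsph1 was 5.24-fold lower at 24 h than at 6 h, Hsp90aa1 3.28-fold, Hspa4 2.99-fold and Cct6a 2.57-fold. Over the 30 genes the median log2 ratio of 24 h to 6 h was -0.76, against 0.00 over all genes measured. From 6 to 12 h the median was -0.13. The highest of the 5 arrays, leaving out the one labelled 3 h, was 6 h for 21 of the 30 genes, 12 h for 8 and vehicle for 1, Pfdn5.

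The classes differed in what remained at 24 h. The median log2 ratio to vehicle was 0.48 for the chaperonin ring, 0.14 for the Hsp90 system, 0.01 for the Hsp70 system, -0.07 for prefoldin and -0.11 for the mitochondrial class. At 1.5-fold, the genes still higher at 24 h were Cct3, Cct6a, Cct8, Hspa1b, Hspe1, Cryab, St13 and Stip1, 8 of 32, against 9.86% of the genes measured. Dnaja1 alone was lower at that fold, against 12.6%. These class differences describe single arrays and were not tested. Over the settings tried, the 24 h median ranged from 0.41 to 0.50 for the chaperonin ring, from 0.09 to 0.18 for the Hsp90 system, from -0.01 to 0.19 for the Hsp70 system, from -0.07 to 0.01 for prefoldin and from -0.17 to -0.0043 for the mitochondrial class, so the Hsp70 and prefoldin medians have no settled sign.

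Agreement between probe sets of a gene is technical and not a replicate. Beside the brightest probe set, 11 further probe sets of 8 chaperone genes reached the floor on at least 1 array. Of these, 5 belonged to genes that were 2-fold higher at 6 h, and all 5 were higher too, by at least 1.5-fold. Over all 11, 9 had the same sign as the brightest at 6 h, the exceptions belonging to Hspd1 and Bag3.

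Promoter windows were set beside these values because heat shock factor, which drives many chaperone genes under stress, binds repeated GAA units in alternating orientation. RefSeq windows (GRCm38.p6, 250 bases before to 50 bases after a gene's start) were found for 25 of the 32 genes on the array, with 33 windows in all. A pair of units, GAANNTTC or TTCNNGAA, each of which reads the same on both strands, was in windows of 12 of the 25, against 17.0% of all genes. A run of 3 or more units, in which both pairs overlap by 1 unit, was in a window of Hspd1, Hspe1 and Hsph1, 3 of 25, against 0.662% of all 27025 genes. The Hspe1 run lies in bases that its window shares with a window of Hspd1. The same 1 site therefore counts for both genes, here and among the pairs. CACGTG, bound by Myc, was in Hspd1 and Hsph1, against 8.09% of all genes. A match of letters is a description and not a binding site.

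The window of Hspe1 (chr1:55087898-55088197, plus strand) shares 285 bases with a window of Hspd1 on the minus strand (chr1:55087883-55088182), and the genes run in opposite directions. It is shown, 5′ to 3′, with those of Hsph1 (chr5:149636266-149636565, minus strand), Hspa1b (chr17:34959189-34959488, minus strand) and Cct8 (chr16:87495820-87496119, minus strand), to set a run of more than 3 units, a run of 3 with a separate pair, a single pair and no pair side by side. Capitals mark the GAANNTTC and TTCNNGAA pairs.
Hspe1: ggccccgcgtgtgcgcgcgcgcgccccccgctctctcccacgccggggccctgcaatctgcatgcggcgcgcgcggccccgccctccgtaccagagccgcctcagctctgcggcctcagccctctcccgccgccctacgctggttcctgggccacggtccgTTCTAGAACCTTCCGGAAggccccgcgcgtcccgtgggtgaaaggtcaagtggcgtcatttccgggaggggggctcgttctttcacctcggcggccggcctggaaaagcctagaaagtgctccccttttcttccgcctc
Hsph1: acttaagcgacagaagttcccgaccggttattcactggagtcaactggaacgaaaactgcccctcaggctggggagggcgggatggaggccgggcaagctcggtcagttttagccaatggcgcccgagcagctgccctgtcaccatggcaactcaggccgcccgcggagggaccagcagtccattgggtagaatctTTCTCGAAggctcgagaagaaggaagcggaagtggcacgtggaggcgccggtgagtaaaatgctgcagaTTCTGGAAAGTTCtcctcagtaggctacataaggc
Hspa1b: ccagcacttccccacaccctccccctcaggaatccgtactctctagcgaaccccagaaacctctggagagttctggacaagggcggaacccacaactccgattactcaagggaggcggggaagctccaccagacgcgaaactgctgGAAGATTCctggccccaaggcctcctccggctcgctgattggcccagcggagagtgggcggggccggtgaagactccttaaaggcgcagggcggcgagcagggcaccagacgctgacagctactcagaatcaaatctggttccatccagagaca
Cct8: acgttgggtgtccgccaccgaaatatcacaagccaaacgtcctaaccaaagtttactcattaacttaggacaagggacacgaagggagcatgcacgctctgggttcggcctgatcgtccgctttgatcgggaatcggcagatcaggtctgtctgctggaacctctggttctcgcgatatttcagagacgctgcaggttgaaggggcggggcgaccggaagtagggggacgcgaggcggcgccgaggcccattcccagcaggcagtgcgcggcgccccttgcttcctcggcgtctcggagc

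The matched positions run from base 162 to 179 of the Hspe1 window and lie between bases 197 and 278 of the Hsph1 window, while Hspa1b has a single pair at bases 147 to 154. At 6 h, 4 of the 12 genes with a pair were 2-fold above vehicle, and 5 of the 13 without one. Cct4, Hsp90aa1 and Hspa8, also 2-fold higher at 6 h, had no window and are in neither count. Hspb1, which was below the floor on every array and so could not be called, is among the 12, and the difference between these counts was not tested. Hspe1 and Hspd1, with overlapping windows, stood at 3.27-fold and 1.44-fold by their brightest probe sets. Cct8, with no pair in its window, was 3.31-fold higher.

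Other folding genes of the cytosol and mitochondria, 63 symbols outside the set above, give the wider picture. Of these, 49 were on the array and 44 reached the floor. At 6 h, 6 were at least 2-fold higher, against 6.34% of all genes measured, and none lower, against 8.35%. The count of 6 depends on the settings: it was 2 with the floor at the 60th percentile and 3 with vehicle and 1 h averaged as baseline. At 12 h, 4 were higher, against 6.16%, and none lower, against 6.93%, and with the higher floor 2 were higher. At 24 h none was higher, against 3.41%, and 1, Dnajb2, was lower, against 3.54%, a share close to that of all genes. Their median log2 ratio was 0.32 at 6 h and 0.15 at 12 h. Tbcb, a tubulin folding cofactor, was at least 2.89-fold higher at 6 h, with 413 against 130 in vehicle. Fkbp5, an immunophilin of Hsp90, was 2.33-fold higher, the mitochondrial import receptor gene Tomm70a 2.20-fold and the ribosome-bound J protein gene Dnajc2 2.14-fold. The J protein genes Dnajc5 and Dnajb4 were 2.01-fold and at least 2.02-fold higher.

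On the array labelled 3 h, whose epithelial, smooth muscle and skeletal muscle markers go against uterus, the chaperone genes had no common direction. Of the 32 genes, 1 was 2-fold above vehicle and 2 were below, against 10.8% and 12.3% of the genes measured. At 1.5-fold 3 were above, against 18.8%, and 6 below, against 26%. Cryab, a small heat shock protein abundant in striated muscle, had a signal of 1465 on this array, against 148 in vehicle, a 9.92-fold difference by 1 probe set, while its other probe set was below the floor on this array and in vehicle. Hspa1b had 234, against 1394 in vehicle, 5.96-fold lower, and Dnaja1 1383, against 3361, 2.43-fold lower. The probe set of Hspa1a had a log2 ratio of -1.59 here. Of the 8 chaperonin genes, 6 were below vehicle and 2 above. The skeletal muscle markers that move with these values summed to 43416 on this array, against 569 in vehicle, and their part in them was not tested.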

How the data were processed

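The deposited values are MAS5 signal intensity on a linear scale, 1 value per probe set and array for 6 arrays of pooled uterine RNA, per the submitters' processing notes. The MAS5 version, background settings and detection calls are not given in the sources used here. From the values, the authors had scaled every array to a common trimmed mean, 497.0 to 497.8 over non-control probe sets. Of 12488 probe sets, 66 controls were left out. The array's annotation gave 10833 probe sets 1 gene, 396 several and 1193 none, and genes were named from the first kind, with 10817 matched by gene identifier to RefSeq GRCm38.p6. Arrays were rescaled to 1 trimmed mean (2% off each end), values under the 40th percentile, 142.8, were raised to that floor, and log2 was taken (Python 3.11.15, pandas 2.3.3, numpy 2.4.6). The brightest probe set stood for a gene. A call was 2-fold or more between 2 arrays, with no test, and 1 array per group limits the precision. Folds are written as at least where the dimmer array was under the floor. Fold calling was tested on simulated data, with changes planted only in genes well above the floor. The noise added was small and fixed, so that check does not measure the error between real arrays. The members, classes and lists were chosen with earlier results of these data known. Genes named in full are those 2-fold from vehicle at 6, 12 or 24 h and the leading genes of each class, with the 6 largest of the wider folding list at 6 h. Of the alternative settings, 8 were planned.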

Additional observations from a re-analysis of the deposited data

Results flagged for a closer look

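Hspa1b went in opposite directions on different arrays of the series. Its log2 ratio to vehicle was -2.57 on the array labelled 3 h and 1.61 at 6 h, and the difference was not tested. The array labelled 3 h is the one on which epithelial and smooth muscle markers were low and skeletal muscle markers high.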

How the results depend on the processing

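With 1 array per group, leaving out a replicate was not possible, and the precision rests on single pools of uteri. No paired analysis was possible because each group has 1 array and the labels carry no replicate numbers. Of the 12 genes 2-fold higher at 6 h, 10 kept that call under every other setting run, the exceptions being Cct4 (log2 ratio 0.94 with vehicle and 1 h averaged as baseline) and Hsp90aa1 (0.84 by the median over probe sets). Of the 8 at 12 h, 6 kept it, and Cct6a (0.79) and Hsp90aa1 (0.63) did not by the median over probe sets. The median log2 ratio over the chaperone genes ranged over all settings from 0.74 to 0.87 at 6 h and from 0.61 to 0.71 at 12 h, and from 0.14 to 0.31 at 24 h, the lowest with the floor at the 60th percentile. Leaving out the 1.5-fold setting, the wider list of folding genes had 2 to 6 genes 2-fold higher at 6 h and 2 to 4 at 12 h. Leaving the array labelled 3 h out of scaling, floor and probe set choice, a setting added after the data were seen, changed no count by more than 1.5 times. At 1.5-fold in place of 2-fold, which by construction calls more genes, 2 were higher and 1 lower at 1 h, 20 higher at 6 h, 19 at 12 h, 8 higher and 1 lower at 24 h, 3 higher and 6 lower on the array labelled 3 h, and 17 lower at 24 h than at 6 h. By class at 1.5-fold, 8 chaperonin, 5 Hsp70, 3 mitochondrial and 1 prefoldin genes were higher at 6 h. Of the Hsp90 class, Hsp90aa1, Stip1 and Fkbp4 were higher at 6 h at that fold. At 12 h, 8 chaperonin, 4 Hsp70, 4 Hsp90 and 2 mitochondrial genes were. By the median over probe sets, the Hsp90 class had 1 gene at 2-fold at 6 h and 1 at 12 h, the Hsp70 class 2 at 12 h, and 6 genes were 2-fold lower at 24 h than at 6 h. The mitochondrial class had 2 at 6 h with vehicle and 1 h averaged as baseline, and the Hsp70 class 2 at 12 h with the same median on every array. Apart from the 1.5-fold setting, the cause was not tested. Another scaling moved the median log2 ratio of all probe sets by under 0.1 at 1, 6, 12 and 24 h, and for the array labelled 3 h it was -0.07 with the same median, against -0.21.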
